A study of Mus musculus with 10 samples.

Results

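The expression of 36 genes of the lysosome, out of 55421 in the count table, was examined in myeloid cells. The cells came from mice with or without Cre-mediated targeting of the phosphatase SHP-2. The members were picked by gene symbol, with earlier results of these data known. It comprised 10 proteases (cathepsins, legumain and Tpp1), 6 glycosidases, 7 genes of lipid handling, 7 membrane proteins, 5 subunits of the vacuolar proton pump and the transcription factor Tfeb. All 36 symbols matched 1 row of the table each. In TAM all 36 were expressed highly enough to be tested, and in MDSC 35 were, the exception being Atp6v0d2.

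Lysosomes are acidic compartments in which endocytosed, phagocytosed and autophagic cargo is broken down. The vacuolar ATPase pumps protons into the lumen, the acid hydrolases cleave proteins, sugars and lipids there, and heavily glycosylated membrane proteins such as LAMP1 line the wall. TFEB and its relatives MITF and TFE3 bind short E-box sequences in the promoters of many of these genes. Macrophages are rich in lysosomes, and osteoclasts, which share a myeloid origin with macrophages, secrete cathepsin K and acid to resorb bone.

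RNA was sequenced in bulk from myeloid-derived suppressor cells (MDSC) of the spleen and tumor-associated macrophages (TAM) of mice bearing subcutaneous MC17-51 fibrosarcoma, a mouse tumor line, at day 15 after implantation. The mice were 8 to 12 weeks old at implantation, and both cell types were taken from the same mice. All mice carried Ptpn11, the SHP-2 gene, with loxP sites (Shp2f/f). The targeted groups carried in addition Cre recombinase under the lysozyme M promoter (Shp2f/fLysMcre), which is active in myeloid cells broadly. The groups were MDSC Shp2f/f (n = 2), MDSC Shp2f/fLysMcre (n = 2), TAM Shp2f/f (n = 3) and TAM Shp2f/fLysMcre (n = 3). Controls thus lacked Cre. Whether a library held 1 mouse or several was not stated, nor which samples came from the same mouse, so p-values measure the spread between these samples.

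Total counts were between 28844660 and 38222998 per library, and Ctsk and Atp6v0d2 in MDSC were the only members with low counts. Ptpn11 fell in TAM by 1.24 on the log2 scale (SE 0.0386, BH-adjusted p = 2.96e-09, edgeR quasi-likelihood F test), whereas the change of -0.29 in MDSC did not pass (SE 0.143, BH-adjusted p = 0.361, edgeR quasi-likelihood F test). Loss of Ptpn11 RNA was thus not shown in MDSC. Lyz2, the lysozyme gene at which Cre sits, had log2 fold changes of -8.33 in TAM and -7.68 in MDSC. Its RNA was almost lost in both Shp2f/fLysMcre groups, so the loss of lysozyme RNA and the targeting of Ptpn11 cannot be told apart. MDSC were described by the methods as Ly6G-positive and by the labels as GR-1-positive cells. In CPM of the total (CPM being counts scaled to a common library size), the neutrophil genes S100a8 and Csf3r were at 3376 to 9292 and 642 to 891 in the 4 libraries and Ly6g at 9.20 to 34.1, while the monocyte genes Ccr2 and Cx3cr1 were at 1320.3 to 2033 and 121 to 142, so markers of both cell types were present. MDSC Shp2f/fLysMcre replicate 2 stood apart, with 11 fibroblast markers summing to 702 CPM of the total against 12.5 to 31.7 CPM in the other 3 MDSC libraries. The genotypes also differed in sex-linked transcripts. Xist was at 0.0304 CPM in MDSC Shp2f/f and 131 CPM in MDSC Shp2f/fLysMcre, and at 9.89 and 284 CPM in the TAM groups. The Y-linked Ddx3y fell but was still present in the same Shp2f/fLysMcre libraries, at 26.2 against 55.3 CPM in MDSC and 39.1 against 82.2 CPM in TAM. Xist and Y-linked transcripts were thus present together in every Shp2f/fLysMcre library. The paper states that males and females were used in equal numbers. Sex of the donors and genotype still cannot be told apart in these libraries. In bulk samples, fewer cells of a type and less RNA per cell cannot be told apart either.

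Promoter sequence was available from RefSeq (GRCm38.p6) for 29 members, from 250 bases before to 50 bases after the start site. Ctsa, Lgmn, Psap and Cln3 had 2 start sites and Tfeb had 3, and a match at any start site was counted. The E-box CACGTG was present in 11 of these 29 members (37.9%) and in 8.09% of the 27025 genes of the table. The extended form GTCACGTG, searched on both strands and containing the E-box, was present in 8 members (27.6%) against 2.55% of all genes. E-boxes are known from promoters of many lysosomal genes, so a higher share may follow from the choice of members. A window for each of the 8 members is shown 5′ to 3′ on the strand of the gene, with the extended E-box in capitals. These windows are given because the genes share this sequence and yet did not all move in the same direction.
Lgmn (chr12:102439125-102439154, minus strand): atggaatgtctGTCACGTGgtccattttat
Ctsd (chr7:142387907-142387936, minus strand): cgcccgcgtctCACGTGACccgttgagggc
Ctsa (chr2:164833748-164833777, plus strand): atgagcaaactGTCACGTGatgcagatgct
Glb1 (chr9:114401017-114401046, plus strand): gctgcttctgaGTCACGTGgcctacagagg
Lamp1 (chr8:13159122-13159151, plus strand): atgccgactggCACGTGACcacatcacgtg
Cln3 (chr7:126583341-126583370, minus strand): tcacgggtactGTCACGTGacccccaacct
Mcoln1 (chr8:3500435-3500464, plus strand): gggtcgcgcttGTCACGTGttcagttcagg
Atp6v0d1 (chr8:105566051-105566080, minus strand): gccctactgcgGTCACGTGagacgcggtgc

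The centers of these motifs lay between 119 bases upstream of the start site (Cln3) and 1 base upstream of it (Atp6v0d1). For Ctsa, Lgmn and Cln3 this was the more downstream start site of the gene. Bases just after the start sites used for Lgmn and Atp6v0d1 were not found in an annotated transcript, so those distances are uncertain. In TAM, 7 of these 8 genes were higher in Shp2f/fLysMcre and Glb1 was lower. Of the 21 members whose promoter did not hold these letters, 18 were higher, 2 were lower and 1 was not called. A match is a description of the sequence only.

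The first comparison concerned the levels of the members in control cells. Per kilobase of exon, Psap, which encodes the precursor of the saposins that help degrade sphingolipids, was the highest member in both Shp2f/f groups, at 3179 ± 107 CPM per kb in MDSC (SD, n = 2) and 1548 ± 10.9 CPM per kb in TAM (SD, n = 3). In TAM it was followed by Lgmn (1416 ± 31.5 CPM per kb), Ctsk (1408 ± 36.3 CPM per kb), Ctsb (1067 ± 17.7 CPM per kb) and Grn (706 ± 4.39 CPM per kb). Lgmn and Ctsk overlapped in range, as did 8 of the 35 neighboring pairs in the TAM order. In MDSC the order after Psap was Ctsz (492 ± 41.4 CPM per kb), Laptm5 (488 ± 12.5 CPM per kb), Lamp1 (441 ± 17.9 CPM per kb) and Grn (317 ± 25.7 CPM per kb), and 10 neighboring pairs overlapped. Tfeb was the lowest member in TAM, at 4.27 ± 0.0887 CPM per kb, and Atp6v0d2 the lowest in MDSC, at 0.0382 ± 0.00804 CPM per kb. Exon length here was the combined length of all annotated exons of a gene, so the order between genes depends on the annotation. Without division by length, Ctsb (6457 ± 107 CPM) was above Psap (4248 ± 29.8 CPM) in TAM.

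Between the cell types of Shp2f/f mice, 22 of the 36 members were higher in TAM and 12 were lower, with Ctsa and Neu1 not called. Over all 15659 genes tested, 78.8% were called, 40.0% higher in TAM and 38.8% lower. Of the proteases 8 of 10 were higher in TAM, and of the membrane proteins 5 of 7 were lower. Tissue and isolation method differed together with the cell type, so these cannot be told apart.

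The largest differences were those of the osteoclast-associated genes. Atp6v0d2, which encodes an inducible d2 subunit of the proton pump, was at 285, 311 and 307 CPM in the 3 TAM libraries and rested on 4 and 3 counts in the 2 MDSC libraries (0.119 and 0.0884 CPM). Its log2 fold change was 11.45 (SE 0.126, BH-adjusted p = 9.03e-12, edgeR quasi-likelihood F test). Ctsk, the collagen-cleaving cathepsin K, was at 2114, 2189 and 2082 CPM in TAM and at 2.36 and 2.06 CPM in MDSC, a log2 fold change of 9.91 (SE 0.0834, BH-adjusted p = 7.26e-12, edgeR quasi-likelihood F test). Atp6v0d2 lies at chr4:19876841-19922605 on the minus strand and Ctsk at chr3:95499256-95509362 on the plus strand (GRCm38, whole gene). Both genes were thus present at high levels in TAM alone of the control cell types.

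Lgmn, the asparaginyl endopeptidase legumain that processes other cathepsins, was at 3222 to 3367 CPM in TAM and at 349 and 395 CPM in MDSC (log2 fold change 3.14, SE 0.0644, BH-adjusted p = 1.42e-10, edgeR quasi-likelihood F test). In the opposite direction, Tfeb was at 23.8, 24.8 and 24.1 CPM in TAM and at 93.8 and 102 CPM in MDSC (log2 fold change -2.01, SE 0.0542, BH-adjusted p = 8.27e-10, edgeR quasi-likelihood F test). Thus Tfeb was lower in the cell type where most hydrolases were higher. Of 21 further regulators and sorting factors, 15 were higher in TAM and 5 lower, against 40.0% and 38.8% of all genes. Psap was lower in TAM, with a log2 fold change of -1.04 (SE 0.0363, BH-adjusted p = 4.91e-09, edgeR quasi-likelihood F test), with 4221 to 4280.2 CPM in TAM and 8515 and 8931 CPM in MDSC. Ppt1, a palmitoyl-protein thioesterase, was at 218 to 234 CPM in TAM and 399 and 405 CPM in MDSC (log2 fold change -0.84, SE 0.0477, BH-adjusted p = 1.73e-07, edgeR quasi-likelihood F test). The calls of 3 small differences were lost when single libraries were left out: Ctsz (log2 fold change 0.18) without MDSC Shp2f/f replicate 1 or TAM Shp2f/f replicate 2, Asah1 (0.18) without TAM Shp2f/f replicate 2, and Lamp1 (0.14) without MDSC Shp2f/f replicate 1 or TAM Shp2f/f replicate 2 or 3.

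**Figure D1:**
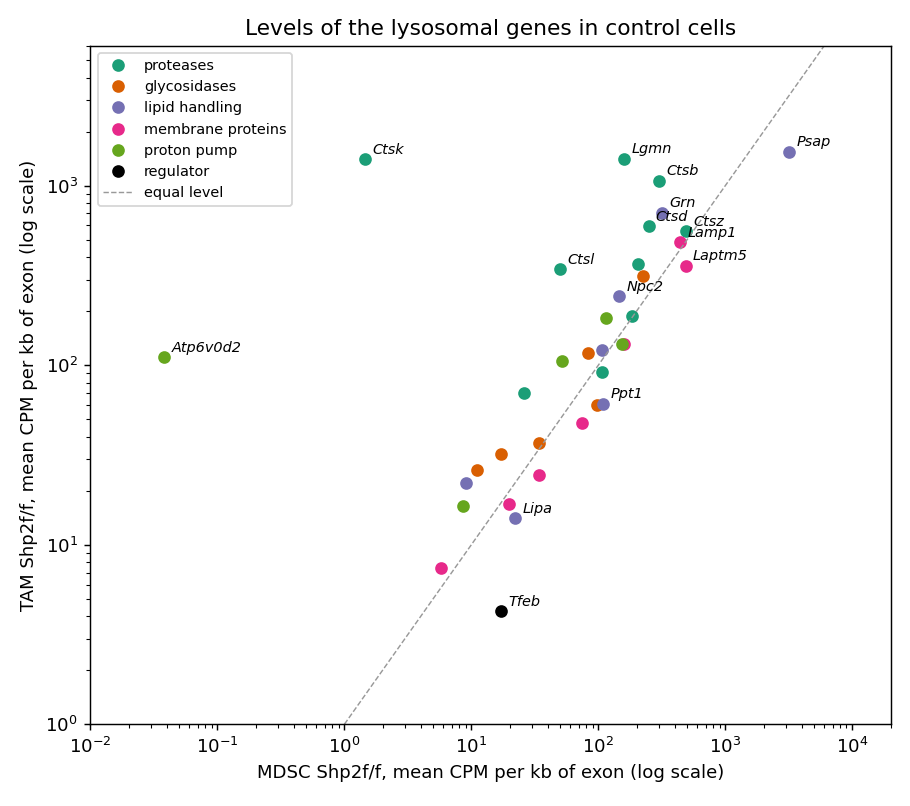
Mean CPM per kilobase of exon of the 36 members in MDSC Shp2f/f (horizontal axis, n = 2, log scale) and TAM Shp2f/f (vertical axis, n = 3, log scale), colored by role, with a dashed line of equal levels. Ctsk and Atp6v0d2 lie far above the line, whereas Psap and Tfeb lie below it.

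Next, the genotypes were compared in TAM. Of the 36 members, 29 rose in Shp2f/fLysMcre TAM, 5 fell and 2 did not pass the test (quasi-likelihood F test of edgeR, threshold of 0.05 on the BH-adjusted p). Over all 14446 genes tested, 50.2% were called, 23.9% higher and 26.3% lower. The median log2 fold change of the members was 0.37 and that of all genes -0.01. The 2 genotypes did not overlap in 34 of the 36 members, against 58.2% of all genes. Together the members made up 3.68% ± 0.052 of all counts in Shp2f/f TAM and 4.61% ± 0.13 in Shp2f/fLysMcre TAM (SD, n = 3 each). With libraries scaled by their total counts, the median of all genes moved to -0.11 and that of the members to 0.27, and 25 members rose and 6 fell.

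Among the proteases, 9 of 10 rose and 1 fell. Ctsb, the abundant cysteine protease cathepsin B, was at 6118, 6308 and 6185 CPM in Shp2f/f and at 10132, 9883 and 9529 CPM in Shp2f/fLysMcre. The gene lies at chr14:63122462-63145923 on the plus strand (GRCm38). Every Shp2f/fLysMcre library lay above every control library, and the log2 fold change was 0.67 (SE 0.0255, BH-adjusted p = 1.09e-08, edgeR quasi-likelihood F test). Some reads of Ctsb may be shared with the opposite-strand gene Fdft1, with which 12.8% of its exon bases overlap.

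Legumain followed the same course. Lgmn was at 3098, 3231 and 3149.8 CPM in Shp2f/f and at 5279, 5046 and 4745 CPM in Shp2f/fLysMcre, with no overlap. The gene lies at chr12:102394084-102439813 on the minus strand (GRCm38). It rose by 0.67 on the log2 scale (SE 0.0366, BH-adjusted p = 1.25e-07, edgeR quasi-likelihood F test). Ctsd, the aspartic protease cathepsin D, was at 1345, 1373 and 1322 CPM in controls and at 2223, 2203 and 2085 CPM after deletion. Its log2 fold change of 0.69 (SE 0.0335, BH-adjusted p = 5.9e-08, edgeR quasi-likelihood F test) was close to those of Ctsb and Lgmn, and the ranges were again separate. An annotated gene model on the same strand covers 34.4% of the exon bases of Ctsd, so reads there could be assigned to either.

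Ctsh, which acts mainly as an aminopeptidase, was at 404, 401 and 386 CPM in Shp2f/f and at 698, 641 and 617 CPM in Shp2f/fLysMcre. The groups were well separated (log2 fold change 0.72, SE 0.0479, BH-adjusted p = 5.03e-07, edgeR quasi-likelihood F test). Smaller rises were measured for Ctsl (log2 fold change 0.51), Ctsc, the activator of granule serine proteases (0.43), Ctsa, which protects Glb1 and Neu1 in a complex (0.41), Ctsz (0.38) and the tripeptidyl peptidase Tpp1 (0.18), all called in the edgeR quasi-likelihood test. Tpp1 was not called when libraries were scaled by total counts.

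Ctsk was the exception among the proteases. It was at 2033, 2101 and 2002 CPM in Shp2f/f TAM and at 844, 795 and 737 CPM in Shp2f/fLysMcre TAM. The lowest control library was far above the highest Shp2f/fLysMcre library, and the log2 fold change of -1.37 (SE 0.0469, BH-adjusted p = 5.92e-09, edgeR quasi-likelihood F test) was the largest in size of any member.

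Among the glycosidases, 4 of 6 rose, 1 fell and 1 did not pass. Neu1 (a sialidase) rose by 0.39 on the log2 scale, Gaa (acid alpha-glucosidase) by 0.35, Hexa (the alpha subunit of beta-hexosaminidase) by 0.32 and Man2b1 (a mannosidase) by 0.29, with mean levels of 120.1 to 599 CPM in Shp2f/f and 153 to 746 CPM in Shp2f/fLysMcre. Glb1, the acid beta-galactosidase, was at 90.3, 95.8 and 92.4 CPM in Shp2f/f and at 71.2, 69.2 and 63.7 CPM in Shp2f/fLysMcre. All 3 deleted libraries were below all controls (log2 fold change -0.45, SE 0.0467, BH-adjusted p = 1.37e-05, edgeR quasi-likelihood F test). Gusb, the beta-glucuronidase, was at 492 to 528 CPM in Shp2f/f and 501 to 523 CPM in Shp2f/fLysMcre, overlapping ranges with a log2 fold change of 0.01 (SE 0.0397, BH-adjusted p = 0.921, edgeR quasi-likelihood F test), and its sign changed between alternatives.

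All 7 genes of lipid handling rose. Lipa, the acid lipase that hydrolyses cholesteryl esters and triglycerides, was at 91.5, 94.7 and 88.5 CPM in Shp2f/f and at 159, 158 and 158 CPM in Shp2f/fLysMcre. The gene lies at chr19:34492318-34527474 on the minus strand (GRCm38). This was the largest rise of any member, with narrow groups far apart (log2 fold change 0.79, SE 0.0381, BH-adjusted p = 5.54e-08, edgeR quasi-likelihood F test). Psap rose from 4058 to 4108 CPM in controls to 5797 to 6618 CPM (log2 fold change 0.59), Grn, the progranulin gene, by 0.45, Asah1, the acid ceramidase, by 0.43 and Ppt1 by 0.43. The cholesterol exporters Npc1 and Npc2 rose least, by 0.20 and 0.15. Npc2 was at 1240.3 to 1287 CPM in Shp2f/f and 1319.7 to 1470.2 CPM in Shp2f/fLysMcre, and was not called when libraries were scaled by total counts.

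All 7 membrane proteins rose as well. Lamp1 was at 1212, 1276 and 1245 CPM in Shp2f/f and at 1919, 1961 and 1899.8 CPM in Shp2f/fLysMcre. The ranges were separate (log2 fold change 0.63, SE 0.0315, BH-adjusted p = 7.07e-08, edgeR quasi-likelihood F test). Its partner Lamp2, which is encoded on the X chromosome, rose by 0.51. Scarb2, the receptor that carries glucocerebrosidase, and Cln3 both rose by 0.38, Laptm4a by 0.37, the calcium channel Mcoln1 by 0.34 and Laptm5 by 0.30. Mcoln1 showed some of the tightest groups, at 53.2 to 55.0 CPM in controls and 67.9 to 68.7 CPM after deletion.

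Of the 5 proton pump subunits, 1 rose and 3 fell. Atp6v0d2 was at 274, 298 and 295 CPM in Shp2f/f and at 127, 125 and 126 CPM in Shp2f/fLysMcre. No deleted library came near a control library, and the log2 fold change was -1.20 (SE 0.0426, BH-adjusted p = 7.81e-09, edgeR quasi-likelihood F test). Atp6v0d1, the ubiquitous d1 counterpart, was at 223 to 228 CPM in Shp2f/f and 236 to 261 CPM in Shp2f/fLysMcre and rose by 0.16 (SE 0.0443, BH-adjusted p = 0.0104, edgeR quasi-likelihood F test). Of the cytosolic V1 subunits, Atp6v1b2 fell by 0.38 on the log2 scale and Atp6v1a by 0.12, and Atp6v1h had a log2 fold change of -0.08 that did not pass. The calls of the small differences depended on scaling and on single libraries. With total count scaling Atp6v0d1 was not called (0.06) and Atp6v1h was called lower (-0.18), so that no subunit rose and 4 fell. Atp6v0d1 was not called without Shp2f/fLysMcre replicate 2 (0.15). Atp6v1a was not called without Shp2f/f replicate 2 or 3 or Shp2f/fLysMcre replicate 1 or 2 (-0.13 to -0.09), and Atp6v1h was called lower without Shp2f/fLysMcre replicate 1 (-0.11).

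Tfeb itself was at 22.9, 23.8 and 23.1 CPM in Shp2f/f and at 28.0, 26.4 and 25.4 CPM in Shp2f/fLysMcre. The groups did not overlap, and the log2 fold change was 0.19 (SE 0.0505, BH-adjusted p = 0.00762, edgeR quasi-likelihood F test). With total count scaling it was 0.10 and was not called. Its relative Mitf fell from 113 ± 2.98 to 74.1 ± 0.703 CPM (SD, n = 3 each, log2 fold change -0.61, BH-adjusted p = 2.25e-07, edgeR quasi-likelihood F test).

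**Figure D2:**
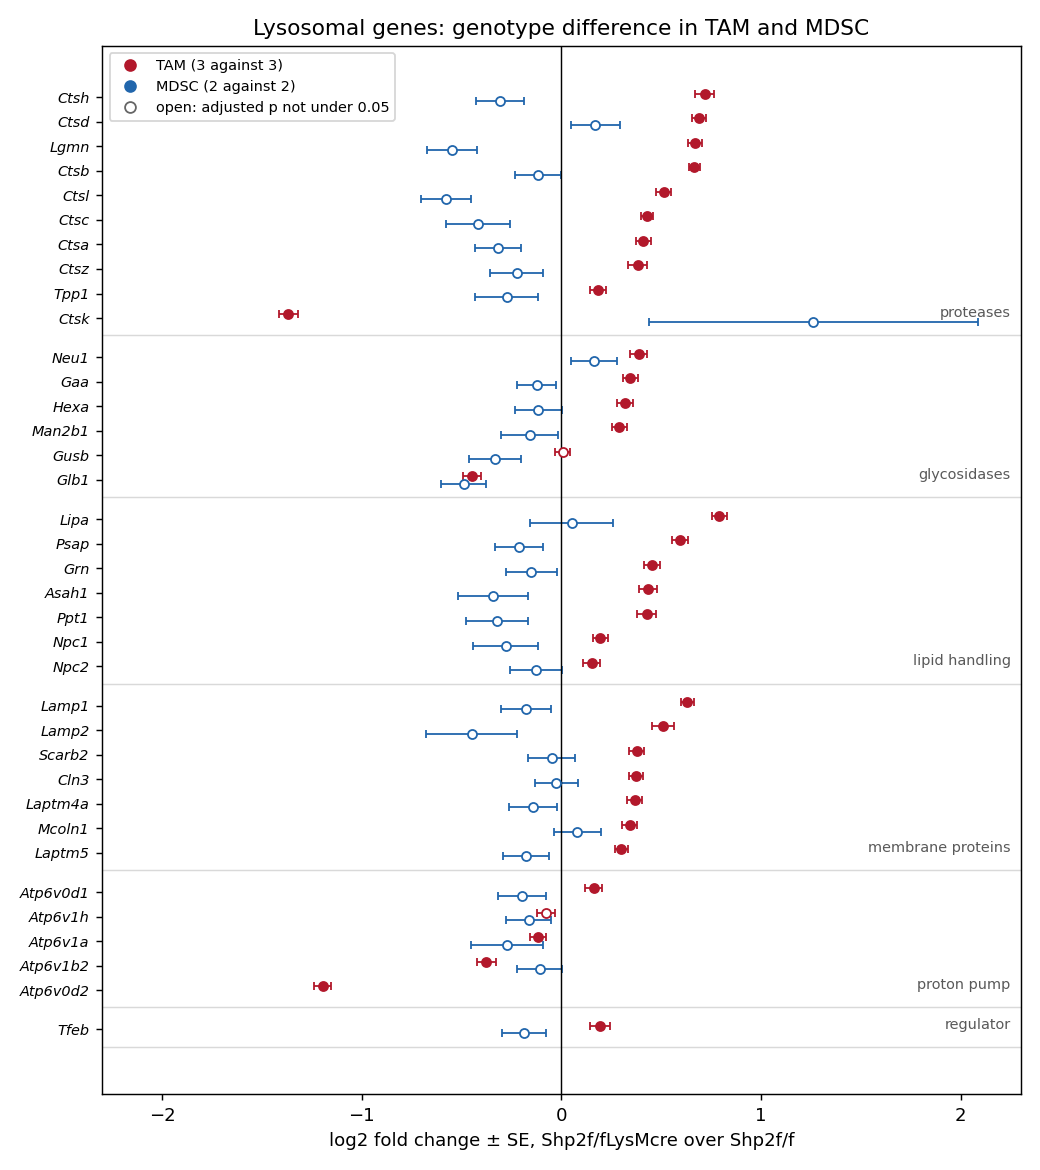
Log2 fold change of Shp2f/fLysMcre over Shp2f/f for the 36 members, grouped by role, in TAM (red, 3 against 3) and MDSC (blue, 2 against 2), with bars of 1 SE and open circles where the BH-adjusted p was not under 0.05. In TAM 29 members lie to the right of 0 as called genes, with Ctsk (-1.37) and Atp6v0d2 (-1.20) far to the left, whereas in MDSC 30 of 35 members lie to the left and none was called.

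Markers of other cell types moved with genotype in TAM. All 8 osteoclast markers fell, and their summed level was 6395 to 6699 CPM of the total in Shp2f/f and 2883 to 2966 CPM in Shp2f/fLysMcre. Ctsk and Atp6v0d2, which are also osteoclast genes, fell along with them. Calcr, a defining osteoclast receptor, was at 0.584 to 0.697 CPM in Shp2f/f and 0.148 to 0.354 CPM in Shp2f/fLysMcre. Mmp9, at 4058 to 4273 and 1835 to 1882 CPM, made up most of the osteoclast sum. It is also on the neutrophil list, of which 10 genes were tested in TAM. There 5 were called higher and 1, Mmp9, lower. Of 12 macrophage markers, 11 rose and Trem2 fell, with a summed level of 13907 to 14390.4 CPM in Shp2f/f and 20646 to 22220.2 CPM in Shp2f/fLysMcre. The 14 proliferation genes all fell, from 1315 to 1325 CPM summed to 719.8 to 768 CPM. Fibroblast markers, another source of Ctsk, summed to 280.0 to 285 CPM in Shp2f/f and 241 to 251 CPM in Shp2f/fLysMcre, with 2 of 11 higher and 4 lower. All 7 pancreatic islet markers fell, from 876 to 6881 CPM summed, the highest being Shp2f/f replicate 3, to at most 77.0 CPM. Without that library 33 members were called. All 8 T and NK cell markers fell, from 20.4 to 20.8 CPM summed to 6.93 to 7.14 CPM, and the 3 endothelial markers tested of 5 rose, from 71.2 to 74.6 CPM summed to 105 to 111 CPM. The part of these lists in the result was not tested.

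**Figure D3:**
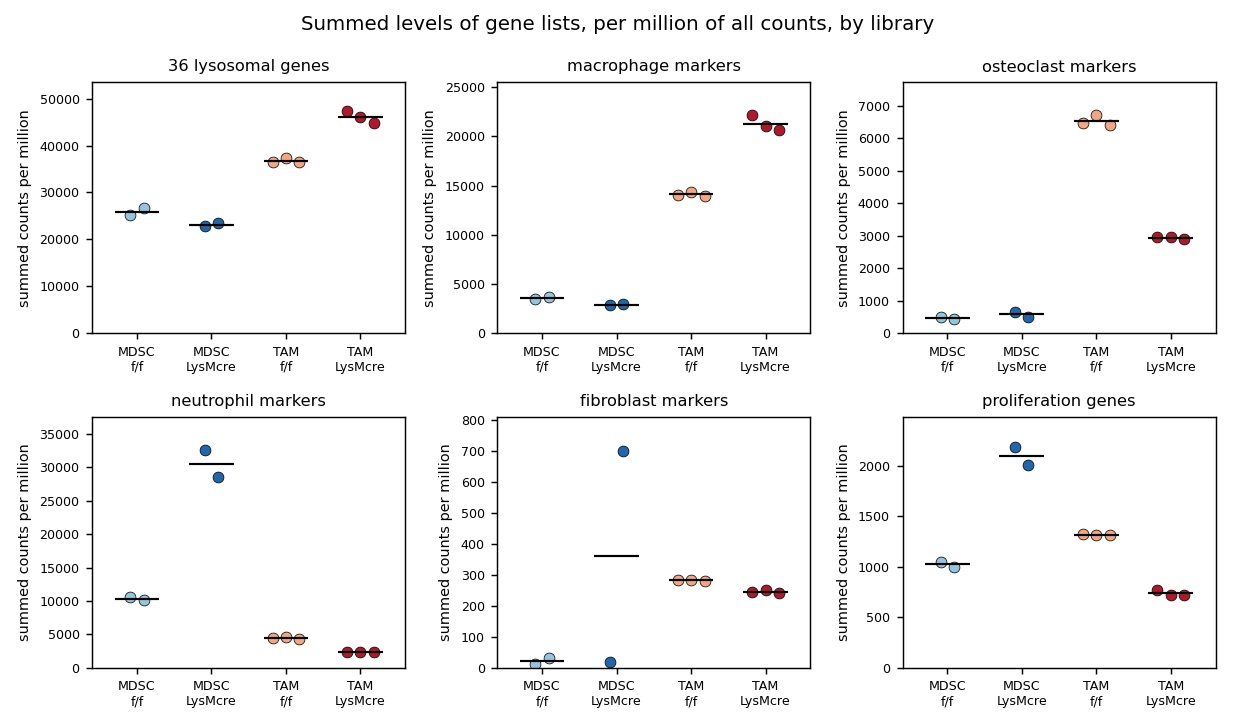
Summed CPM of the total for the 36 lysosomal genes and 5 other gene lists, each point 1 library and each bar the group mean. In TAM the lysosomal and macrophage lists are higher and the osteoclast and proliferation lists lower in Shp2f/fLysMcre, and in MDSC 1 Shp2f/fLysMcre library stands apart in the fibroblast list.

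The wider lysosomal system was then examined through 122 further genes in 7 lists. In TAM 113 were tested, of which 64 rose and 18 fell, with a median log2 fold change of 0.21. By role, 16 of 21 other glycosidases and sulfatases rose and 2 fell, 9 of 11 other lipid enzymes and cofactors rose and 1 fell, 7 of 11 other proteases rose and 1 fell, and 18 of 28 other membrane proteins and transporters rose and 2 fell. Of the other proton pump subunits 3 of 15 rose and 6 fell (median -0.05). Over all genes 23.9% rose and 26.3% fell, so the pump counts were not far from that background. Of 21 regulators and sorting factors 9 rose and 5 fell, and of 6 cystatin-type inhibitors tested 2 rose and 1 fell.

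The largest rises in these lists included the phospholipase Pla2g15 (109.9 ± 2.94 to 187 ± 11.4 CPM, log2 fold change 0.76), the cation channel Mcoln2 (24.2 ± 0.763 to 41.5 ± 2.14 CPM, 0.78), the sorting receptor Sort1 (9.98 ± 0.359 to 17.1 ± 0.853 CPM, 0.77), the nuclease Pld4 (0.71), the amino acid transporter Slc36a1 (0.67), Flcn, a regulator of TFEB (0.67), the hyaluronidase Hyal1 (0.65), alpha-galactosidase Gla (0.57) and cathepsin S, Ctss (2620.0 ± 141 to 3834 ± 194 CPM, 0.55). Smaller rises were those of the pump genes Atp6v0a1 (0.47) and Atp6ap1 (0.26), of Ctso (0.44) and of the serpin Serpinb6a (0.24). The falls included Arsb, arylsulfatase B (157 ± 5.26 to 63.0 ± 1.51 CPM, log2 fold change -1.32, BH-adjusted p = 2.96e-09, edgeR quasi-likelihood F test) and Acp5, the tartrate-resistant phosphatase of osteoclasts (1590.0 ± 38.1 to 800.2 ± 40.3 CPM, -0.99). Igf2r, the mannose 6-phosphate receptor that delivers hydrolases (-0.39), the transporter Abca2 (-0.26), Tcirg1, the pump subunit of osteoclasts (-0.24), and Atp6v1c1 (-0.24) fell less (SD, n = 3 in each group).

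In MDSC no member passed the test. Of 35 members tested 0 were called in the edgeR quasi-likelihood test, against 4.28% of all 14806 genes, 3.76% higher and 0.520% lower. Of the members, 30 had a log2 fold change below 0, against 52.2% of all genes, and the median was -0.18 against -0.015. At an unadjusted p under 0.05 there were 7 members, all lower, with 19.3% of all genes past that mark and 6.03% past it and lower. In 28 of the 35 the genotypes did not overlap, against 49.1% of all genes. The members made up 2.59% ± 0.0919 of all counts in Shp2f/f and 2.31% ± 0.0354 in Shp2f/fLysMcre (SD, n = 2 each).

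The 5 members with the smallest p were Ctsl, Lgmn, Glb1, Ctsa and Ctsc. Ctsl, cathepsin L, was at 307 and 354 CPM in Shp2f/f and at 216 and 227 CPM in Shp2f/fLysMcre. Both Shp2f/fLysMcre libraries were below both controls, with a log2 fold change of -0.58 (SE 0.126, BH-adjusted p = 0.0768, edgeR quasi-likelihood F test). Of the exon bases of Ctsl, 26.8% overlap an opposite-strand gene model and 6.09% a same-strand one, so some reads may be shared. Lgmn was at 357 and 406 CPM against 252 and 271 CPM, a log2 fold change of -0.55 (SE 0.126, BH-adjusted p = 0.0868, edgeR quasi-likelihood F test). Glb1 was at 49.6 and 55.4 CPM against 38.3 and 36.5 CPM (log2 fold change -0.49, SE 0.113, BH-adjusted p = 0.0868, edgeR quasi-likelihood F test). Glb1, which fell in TAM, was thus also measured below its controls in MDSC, where the difference did not pass.

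Ctsc was at 1210.4 and 1222 CPM in Shp2f/f and at 1032 and 789 CPM in Shp2f/fLysMcre (log2 fold change -0.42, SE 0.162, BH-adjusted p = 0.244, edgeR quasi-likelihood F test). Ctsa was at 858 and 912 CPM against 725 and 693 CPM (log2 fold change -0.32, SE 0.115, BH-adjusted p = 0.22, edgeR quasi-likelihood F test). Tfeb was at 95.9 and 105 CPM against 87.0 and 89.2 CPM (log2 fold change -0.19, SE 0.109, BH-adjusted p = 0.444, edgeR quasi-likelihood F test). In all 3 genes both Shp2f/fLysMcre libraries were below both controls. The 5 members with a log2 fold change above 0 were Ctsk, Ctsd (0.17), Neu1 (0.16), Mcoln1 (0.08) and Lipa (0.05).

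The count of 0 depended on single libraries and on the tool. DESeq2 called 4 members lower (Ctsa, Ctsl, Lgmn and Glb1). Without MDSC Shp2f/fLysMcre replicate 1, edgeR called 12, of which Ctsk was higher and 11 were lower, including Ctsc (-0.65), Lamp2 (-0.84), Asah1 (-0.61), Ppt1 (-0.55) and Npc1 (-0.52). Without Shp2f/fLysMcre replicate 2, the library with the fibroblast markers, 4 were called, with Ctsl (-0.61), Lgmn (-0.60) and Glb1 (-0.46) lower and Lipa (0.32) higher. Without either Shp2f/f library 0 were called. In these fits the lone library of a group was assumed to vary like the others.

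Ctsk and Atp6v0d2 were barely present in MDSC. Ctsk was at 2.41 and 2.12 CPM in Shp2f/f and at 1.37 and 9.49 CPM in Shp2f/fLysMcre, and the high value belonged to replicate 2, where 365 counts were found against 48 to 79 in the other MDSC libraries. Its log2 fold change of 1.26 (SE 0.825, BH-adjusted p = 0.496, edgeR quasi-likelihood F test) turned to -0.72 without that library. Atp6v0d2 had 4 and 3 counts in Shp2f/f and 5 and 5 counts in Shp2f/fLysMcre, too few to test. The part of fibroblast RNA in the Ctsk value of replicate 2 was not tested.

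Marker lists moved in MDSC too. Of 13 neutrophil markers 8 were called higher, with a summed level of 10144 to 10539 CPM of the total in Shp2f/f and 28536 to 32585 CPM in Shp2f/fLysMcre. Of 12 macrophage markers 2 were called lower, with sums of 3507 to 3693 and 2883 to 2923 CPM. Proliferation genes were called higher in 11 of 14 cases (1003 to 1053 CPM against 2006 to 2186 CPM). Of 8 erythroid markers 6 were called higher (276 to 297 CPM against 605 to 761 CPM), and of 7 B cell markers 2 were called lower (51.3 to 63.3 CPM against 48.3 to 49.5 CPM). Their part in the lower lysosomal values was not tested. Among the 115 further lysosomal genes tested in MDSC, 5 rose and 0 fell in the edgeR quasi-likelihood test, against 3.76% and 0.520% of all genes, so the share that rose was near the background. Among them were the tetraspanin Cd63 (14.5 and 14.2 CPM against 47.9 and 73.6 CPM, log2 fold change 2.08), the serpin Serpinb1a, which inhibits neutrophil proteases (92.1 and 91.8 against 260.3 and 191 CPM, 1.29) and the aspartic protease Ctse (56.8 and 54.5 against 146 and 117 CPM, 1.24). At an unadjusted p under 0.05, 15 of the 115 were lower, against 6.03% of all genes.

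**Figure D4:**
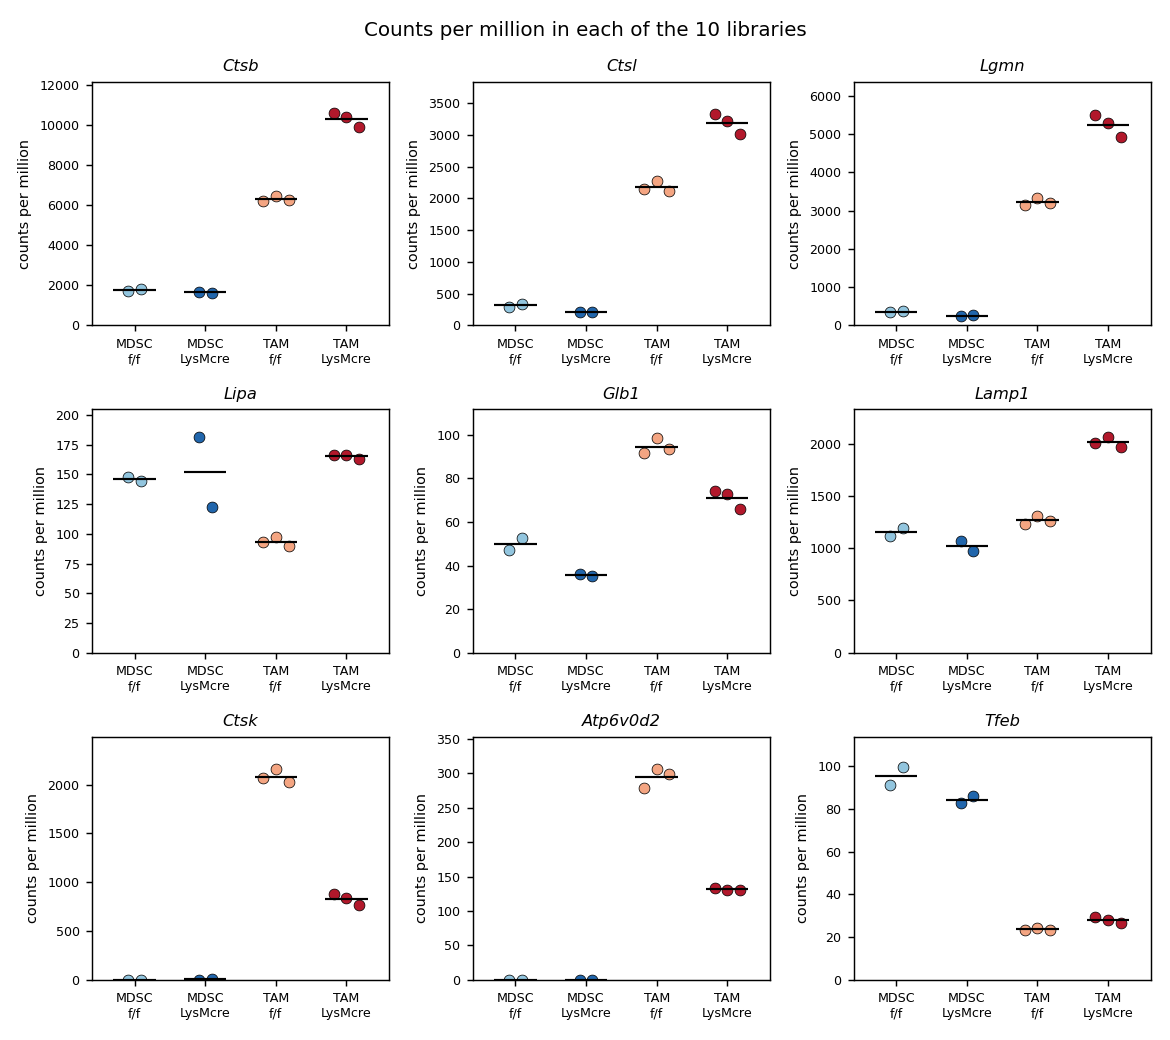
CPM (vertical axes, all 10 libraries scaled together) of 9 members in each library, with bars for group means. Ctsb, Ctsl, Lgmn, Lipa and Lamp1 are higher in Shp2f/fLysMcre TAM than in their controls, Glb1, Ctsk and Atp6v0d2 are lower, and in MDSC Ctsk and Atp6v0d2 lie near 0 in both genotypes and the 2 Shp2f/fLysMcre libraries lie on either side of the controls for Lipa.

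Finally, the genotype difference in TAM was tested against that in MDSC as an interaction over all 10 libraries. It was higher in TAM for 27 of 36 members and lower for Ctsk, with 8 not called. Over all 16581 genes tested, 24.9% were called, 12.2% higher and 12.7% lower. The median interaction of the members was 0.50 on the log2 scale and that of all genes -0.01. With total count scaling these were 0.33 and -0.18, and 22 members were higher and 2 lower. In TAM 30 of 36 members had a log2 fold change above 0, against 6992 of all 14446 genes tested. In MDSC 30 of 35 were below 0, against 52.2% of all genes. Both held for 26 of 35 members, and the share of all genes with both signs was not counted. No member was called in MDSC, and some lay near 0 there (Cln3 -0.03, Scarb2 -0.05). The joint fit shared 1 estimate of spread per gene over both cell types, although MDSC replicates varied more than TAM replicates. For Lgmn the SE of the interaction (0.113) was below that of the MDSC fit alone (0.126). The interaction p-values may therefore be too small.

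The proteases had the largest interactions, with 9 of 10 higher. For Lgmn the difference was 1.25 (SE 0.113, BH-adjusted p = 5.89e-05, edgeR quasi-likelihood F test), from 0.67 in TAM and -0.55 in MDSC. For Ctsl it was 1.12 (SE 0.111, BH-adjusted p = 9.85e-05, edgeR quasi-likelihood F test), for Ctsh 1.05 (SE 0.103, BH-adjusted p = 9.21e-05, edgeR quasi-likelihood F test) and for Ctsc 0.88 (SE 0.133, BH-adjusted p = 0.00124, edgeR quasi-likelihood F test). These genes were each measured higher in Shp2f/fLysMcre TAM and lower in Shp2f/fLysMcre MDSC. In MDSC none of them was called on its own.

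Among membrane and lipid genes, Lamp2 had a difference of 0.99 (SE 0.216, BH-adjusted p = 0.00881, edgeR quasi-likelihood F test), Lamp1 of 0.84 (SE 0.0923, BH-adjusted p = 0.000188, edgeR quasi-likelihood F test) and Psap of 0.84 (SE 0.0979, BH-adjusted p = 0.000266, edgeR quasi-likelihood F test). In TAM, Lamp2 was at 410 to 473 CPM in Shp2f/f and 615 to 679 CPM in Shp2f/fLysMcre. In MDSC it was at 722 and 653 against 613 and 398 CPM, so its lowest MDSC value was again that of Shp2f/fLysMcre replicate 2. Tfeb differed by 0.41 (SE 0.0908, BH-adjusted p = 0.00946, edgeR quasi-likelihood F test). The members not called were Glb1, Neu1, Npc2, Mcoln1, Atp6v0d2, Atp6v1a, Atp6v1b2 and Atp6v1h, which include 4 of the 5 pump subunits. Over all genes tested 24.9% were called, so the share of the pump was near the background.

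The call for Ctsk (-2.62, SE 0.729, BH-adjusted p = 0.027, edgeR quasi-likelihood F test) was lost in 8 of the 10 fits that left out 1 library, the exceptions being those without MDSC Shp2f/fLysMcre replicate 1 or TAM Shp2f/f replicate 3, and was also lost with limma voom. Without MDSC Shp2f/fLysMcre replicate 2 its value was -0.61. For Atp6v0d2 the fitted difference of -1.51 did not pass and rested on 3 to 5 counts in each MDSC library. Of the 28 called members, 20 kept their call without each library in turn. The others, besides Ctsk, were Tpp1, Gusb, Man2b1, Lipa, Npc1, Atp6v0d1 and Tfeb, and for all 8 the omission of 1 or both of the MDSC Shp2f/f libraries was among the settings that lost the call. With MDSC Shp2f/f replicate 2 left out, the count of called members was lowest, at 20.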

How the data were processed

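Libraries were made with a stranded poly(A) kit and read as paired 42-nt ends. Per the submitters' processing notes and the methods, the authors trimmed reads with cutadapt 2.5 after FastQC 0.11.5, aligned them to GRCm38 with STAR 2.7.3a and deposited raw counts per Ensembl gene from featureCounts (Subread 1.6.2). The strand setting and the handling of multi-mapping reads were not given in the sources used here, and 13 of the 36 members share exon bases with another gene, so their counts are uncertain there. A second deposited table, of counts scaled by the authors with DESeq2 1.24.0, was not used.

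The deposited counts (28844660 to 38222998 per library) were filtered with filterByExpr (minimum count 10), scaled by TMM and tested with the quasi-likelihood F test of edgeR 4.0.16 (R 4.3.3), with Benjamini-Hochberg adjustment over all genes tested and a threshold of 0.05. Each genotype comparison used only its own cell type, and the interaction used all 10 libraries. Values in CPM come from the same scaling as the test beside them, and marker sums are CPM of the total. Levels per kb used the combined length of all annotated exons of a gene in GENCODE M21, to which 99.67% of gene identifiers matched. The procedure was tested on simulated data. Alternatives were DESeq2 1.42.0, limma 3.58.1, other scalings and filters, the replicate number as a block, a joint fit over the 10 libraries and the omission of each library. The main tests did not use the sample numbers as pairs, and the check in the closing section cannot decide this for MDSC. Full statistics were given for Ctsk, Atp6v0d2, Tfeb and the 8 members with the largest called changes, the 5 with the smallest p in MDSC, and the 3 largest in each direction between cell types. From the further lists, up to 2 called genes per direction with a mean of at least 10 CPM were named, except 1 gene that is not reported here. The members and lists were chosen with earlier results of these data known.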

Additional observations from a re-analysis of the deposited data

Results flagged for a closer look

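The genotype difference in TAM minus that in MDSC, on the log2 scale, passed the interaction test (edgeR quasi-likelihood test with Benjamini-Hochberg adjustment) for 28 members. Among the proteases it was 1.25 for Lgmn, 1.12 for Ctsl, 1.05 for Ctsh, 0.88 for Ctsc, 0.81 for Ctsb, 0.76 for Ctsa, 0.64 for Ctsz, 0.55 for Ctsd, 0.49 for Tpp1 and -2.62 for Ctsk. Among the glycosidases it was 0.50 for Gaa, 0.48 for Man2b1, 0.46 for Hexa and 0.37 for Gusb. For the genes of lipid handling it was 0.84 for Psap, 0.81 for Asah1, 0.78 for Ppt1, 0.77 for Lipa, 0.63 for Grn and 0.51 for Npc1. For the membrane proteins it was 0.99 for Lamp2, 0.84 for Lamp1, 0.54 for Laptm4a, 0.51 for Laptm5, 0.46 for Scarb2 and 0.43 for Cln3. It was 0.39 for the pump subunit Atp6v0d1 and 0.41 for Tfeb. Without MDSC Shp2f/fLysMcre replicate 2 the value of Ctsk was -0.61. Over all genes tested 24.9% were called, and the interaction p-values may be too small. Of these 28 calls, 19 were kept under every alternative.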

How the results depend on the processing

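In TAM, 30 to 34 members were called over all alternatives, and between the cell types of Shp2f/f mice 31 to 35 were. In the interaction 20 to 31 were called, 20 to 29 of them when single libraries were left out, the lowest without MDSC Shp2f/f replicate 2. In MDSC the count of 0 became 4 with DESeq2, 5 with the replicate block, 7 in one fit of all 10 samples, and 0 to 12 without single libraries. Ctsk in MDSC ranged from -0.72 without Shp2f/fLysMcre replicate 2 to 2.04 without Shp2f/fLysMcre replicate 1, and the cause was not tested. Over all genes, 633 were called in MDSC, against 1216 with DESeq2, 130 without a filter on low counts, 2674 with the block, 2666 in one fit of all 10 samples and 1 to 4406 without single libraries. With scaling by total counts the calls in TAM split into 2342 higher and 5227 lower (3452 and 3805 with TMM), and those of the interaction into 1234 and 3132 (2030 and 2102). The interaction called 2446 to 7023 genes without single libraries, and TAM called 4837 in one fit of all 10 samples.

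Deviations of samples with the same number had correlations of -0.178, 0.049 and 0.012 between the TAM genotypes. They were 0.409 between the MDSC genotypes and 0.054 and 0.063 between cell types in Shp2f/f. With 2 MDSC replicates per group, centering makes same-number and different-number values mirror images (0.409 and -0.409). The check therefore cannot decide whether MDSC samples were paired. The main tests did not use the numbers as pairs. With the replicate block 34 members were called in TAM, 5 in MDSC, 27 in the interaction and 33 between cell types.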
